A study of Mus musculus with 21 samples.

Results

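RNA-seq of c-kit+ bone marrow cells was used here to compare mice that carry both Asxl1 loss and the Jak2V617F allele with wild-type (WT) mice. The comparison rests on 6 of the 21 samples of the series, 3 labelled Asxl1-/-Jak2V617F and 3 labelled WT, chosen by their genotype label and their raw count columns. All genes of the table were considered, 54532 in all, of which 16262 had enough reads to be tested. The mice are given as C57BL/6, and c-kit+ cells were taken from femur and tibia marrow with CD117 magnetic beads after red cell lysis. The series also holds 3 Jak2V617F and 2 Asxl1-/- RNA libraries, which entered the same fit and are given beside the main values, and chromatin libraries that were not analysed here. Neither the Cre line or promoter, nor the exons removed from Asxl1, nor the number of Jak2V617F alleles, nor age is given in the sources used here. The labels do not say that replicates were separate mice, so the p-values measure the spread between these libraries, which may be technical.

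Asxl1 encodes a chromatin protein that works with the deubiquitinase Bap1 on ubiquitinated histone H2A and interacts with Polycomb complexes. Jak2 is the kinase that carries signals from the erythropoietin, thrombopoietin and related receptors to STAT factors, and its V617F form signals without the cytokine. Both are found in human myeloproliferative neoplasms, and ASXL1 mutations often accompany JAK2 V617F in myelofibrosis. Marrow also holds resident macrophages, some of which surround maturing erythroblasts, clear dead cells and recycle iron.

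Library totals were 16198011 to 18535292 counts in the 6 libraries. On the first principal component of these libraries, which held 49.8% of the variance, Asxl1-/-Jak2V617F 1 and 2 lay at -52 and -51.6 and WT 2 and 3 at 50.3 and 51.3. Asxl1-/-Jak2V617F 3 at -18.4 and WT 1 at 20.3 lay between them, and counts are therefore also given without each. Mitochondrial genes took 1.17% to 1.55% of counts and haemoglobin genes 0.00535% to 0.0253%. None of the 6 libraries held Y-linked reads, whereas both Asxl1-/- libraries and Jak2V617F 2 did, and Xist was read in the 6 libraries but at 0 or near 0 in those 3. Sex and genotype cannot be told apart in the comparisons of Asxl1-/- with WT or with Asxl1-/-Jak2V617F, and the interaction includes them. Jak2V617F 2 differed in these sex markers from Jak2V617F 1 and 3, so the estimate of spread that all genotypes share includes libraries of both sexes.

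The targeted genes came first as a check of the labels. Asxl1 (chr2:153345829-153404007, + strand, mm10) stood at 93.5, 95.1 and 100 CPM (counts scaled to each library's size by the TMM method) in Asxl1-/-Jak2V617F and at 162, 164 and 161 in WT. The groups did not overlap, and the log2 fold change was -0.75 ± 0.12 (SE, edgeR adjusted p = 0.0073), a ratio of 0.594 over the whole gene. The count per gene cannot show which exons it came from. Jak2 (chr19:29251828-29313080) stood at 86.1, 97.3 and 93.1 CPM against 71.7, 83.4 and 75.9 in WT. Its log2 fold change of 0.26 ± 0.08 passed narrowly (adjusted p = 0.0448) and lost its call in 9 of 13 alternative analyses, every omission of 1 library among them (adjusted p = 0.0521 to 0.132). Kit, the receptor used for enrichment, was read at 242, 281 and 219 CPM against 289, 253 and 264. Those groups overlapped (log2 fold change -0.12 ± 0.13, adjusted p = 0.554).

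Across the 16262 genes tested, 2449 differed between Asxl1-/-Jak2V617F and WT at an adjusted p under 0.05 (15.1%). Of these 1350 were higher (8.3%) and 1099 lower (6.76%). The higher genes were abundant and moved little, with a median log2 fold change of 0.44 and quartiles of 0.36 and 0.56. The lower genes were scarcer and moved further, with a median of -1.02 and quartiles of -1.65 and -0.57. At least 2-fold differences accordingly ran mostly downwards, with 124 genes higher (0.763%) and 559 lower (3.44%). Among the 2514 genes with a mean of 100 CPM or more, 583 were higher and 92 lower, and among the 5762 under 5 CPM, 72 were higher and 428 lower. The number of calls depended strongly on single libraries. It was 531 without WT 2, 665 without WT 3, 842 without Asxl1-/-Jak2V617F 2 and 1116 without Asxl1-/-Jak2V617F 1, but 2461 without Asxl1-/-Jak2V617F 3 and 3493 without WT 1. At least 2-fold differences numbered 210 without WT 2 and 920 without WT 1, against 683 with all libraries. Unadjusted, 5374 genes had a p under 0.05, and the median log2 fold change over all genes was -0.03.

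**Figure D1:**
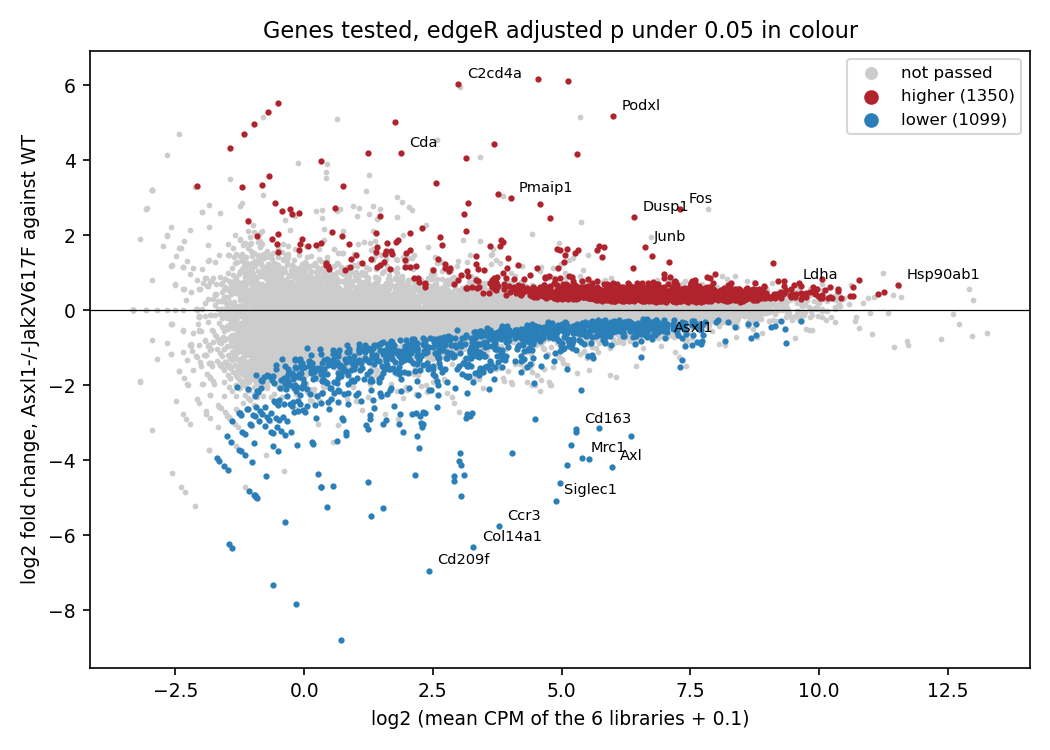
Each point is a gene tested, placed by its mean abundance over the 6 libraries (log2 of mean CPM plus 0.1) and its log2 fold change in Asxl1-/-Jak2V617F against WT; the 1350 genes called higher are red, the 1099 called lower blue and the others grey. Large falls lie at low to middle abundance (Cd209f, Col14a1, Siglec1), whereas most abundant genes called higher moved by less than 2-fold.

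Genes of resident marrow macrophages were among those that fell most. In a list of monocyte and macrophage genes, 15 of 30 tested members were lower and 1 was higher, against 6.76% and 8.3% of all genes, and the median log2 fold change was -1.36. The count of lower members was 14 without Asxl1-/-Jak2V617F 3 and 17 without WT 1. It was 6 without Asxl1-/-Jak2V617F 1 or without Asxl1-/-Jak2V617F 2, 7 without WT 3 and 10 without WT 2 or without a filter on low counts. In bulk RNA, fewer cells of a type and less RNA per cell cannot be told apart.

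Siglec1, the sialic acid receptor CD169 of marrow macrophages, stood at 1.12, 1.14 and 2.87 CPM in Asxl1-/-Jak2V617F and at 29.4, 29.3 and 114 CPM in WT. Even the lowest WT library was far above the highest library with both lesions (log2 fold change -5.08 ± 0.85, adjusted p = 0.0119). Axl, a receptor tyrosine kinase for apoptotic cells, was read at 4.83, 4.98 and 10.1 CPM against 96.2, 74 and 187 CPM (-4.17 ± 0.67, adjusted p = 0.0114). Mertk, its relative, fell from 12.2, 9.92 and 25.2 CPM in WT to 0.393, 0.343 and 0.794 CPM (-4.94 ± 0.82, adjusted p = 0.0102). Timd4, another receptor for dying cells, which binds phosphatidylserine, fell from 5.09, 1.86 and 9.46 CPM to 0.0561, 0.172 and 0.183 CPM (-5.26 ± 0.84, adjusted p = 0.00753). The groups did not overlap in any of these 4 genes, as in 36.5% of all genes tested. Genes of largest fold change, Mertk among them, were chosen from those without overlap. Each of the 4 kept its call in all 13 alternatives.

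Scavenger receptors fell with them. Mrc1, the mannose receptor, was read at 4.72, 4.75 and 5.93 CPM against 61.9, 68.5 and 107 CPM in WT (-3.95 ± 0.63, adjusted p = 0.0108). Cd163, which takes up haemoglobin-haptoglobin complexes, was read at 6.06, 8.98 and 8 CPM against 50.9, 58.9 and 97.9 CPM (-3.17 ± 0.36, adjusted p = 0.00442). The C-type lectin gene Cd209f was nearly silent, with 0.112, 0 and 0.122 CPM against 9.18, 9.02 and 13 CPM (-6.94 ± 0.51, adjusted p = 0.000689), which is 4 reads in all against 539. Cd5l, a secreted protein of tissue macrophages chosen after its values were seen, fell from 40.6, 29.3 and 125 CPM to 3.37, 4.41 and 3.42 CPM (-4.12 ± 0.70, adjusted p = 0.0123). Calls for these 4 genes held in all 13 alternatives.

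Spic, the ETS factor needed for red pulp and some marrow macrophages, was read at 0.505, 0.629 and 1.16 CPM against 9.18, 9.24 and 30.2 CPM (-4.40 ± 0.77, adjusted p = 0.0117). In a list of haem synthesis and iron genes 3 of 24 members were lower (Slc40a1, Hmox1 and Ppox) and 0 higher, with a median of 0.14. The share lower was 12.5%, against 6.76% of all genes. Slc40a1, the iron exporter ferroportin, is made by more cell types and fell less, from 216, 206 and 308 CPM to 125, 112 and 146 CPM (-0.93 ± 0.18, adjusted p = 0.0123). Hmox1, which opens the haem ring, was read at 14.1, 10 and 19.7 CPM against 194, 87.5 and 162 CPM (-3.34 ± 0.60, adjusted p = 0.0146). Its call was lost narrowly without Asxl1-/-Jak2V617F 1 (adjusted p = 0.0515) or Asxl1-/-Jak2V617F 2 (0.0521), while Spic and Slc40a1 kept theirs throughout.

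C1qa, C1qb and C1qc, which encode the chains of complement C1q and are made by macrophages, all fell. C1qa was read at 3.82, 4.69 and 8.18 CPM against 51.5, 52.6 and 156 CPM (-3.97 ± 0.73, adjusted p = 0.0155), and its call was lost without Asxl1-/-Jak2V617F 1 or 2 (adjusted p = 0.0557 and 0.0571). C1qb lost its call in 4 alternatives and C1qc in 3. The monocyte genes of the same list had mixed values. Ly6c2, which marks inflammatory monocytes, was read at 831, 1031 and 634 CPM against 816, 840 and 908 CPM, and the groups overlapped (-0.04 ± 0.25, adjusted p = 0.932). Csf1r, the receptor for macrophage colony-stimulating factor, stood at 77.8, 70.7 and 68.5 CPM against 94, 118 and 94.3 CPM, with a difference that did not pass (-0.50 ± 0.27, adjusted p = 0.238; 0.0346 in the fit without the Jak2V617F libraries and 0.0365 in the fit of the 6 libraries alone). Vcam1, an adhesion protein of marrow macrophages and stroma, stood at 77.8, 130 and 59.9 CPM against 205, 209 and 342 CPM and did not pass either (-1.50 ± 0.62, adjusted p = 0.136), but did in the same alternatives (0.0347 and 0.0471). Cd14, the lipopolysaccharide co-receptor, was the 1 member that rose, from 7.22, 4.51 and 5.24 CPM to 18.2, 14.8 and 22.7 CPM (1.71 ± 0.35, adjusted p = 0.014). That call was lost without WT 2 (adjusted p = 0.0644) or WT 3 (0.0553). When the list was divided after its values were seen, 13 of 14 tissue macrophage members were lower with a median log2 fold change of -3.77, and 2 of 16 monocyte and pan-myeloid members were lower with a median of -0.17.

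**Figure D2:**
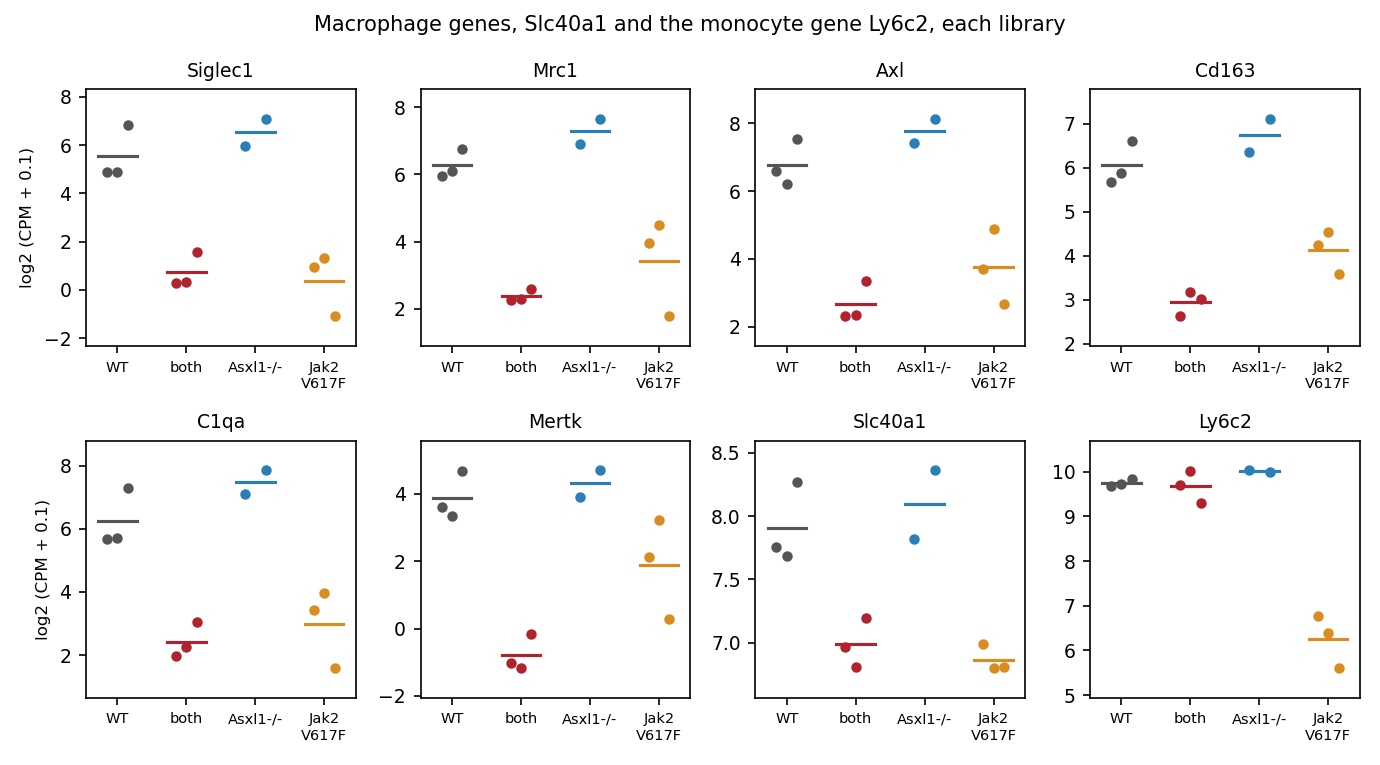
Each point is 1 library and each bar the mean of its genotype, on a log2 (CPM + 0.1) axis that differs between panels; "both" is Asxl1-/-Jak2V617F. The 3 libraries with both lesions lie below all 3 WT libraries for the macrophage genes and Slc40a1, whereas for Ly6c2 the groups overlap.

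The same genes in the single lesions, which share the WT libraries with the main difference, were as follows. In Jak2V617F alone, Siglec1 differed from WT by -5.21, Axl by -2.87, Mrc1 by -2.52 and Cd163 by -1.95 on the log2 scale, and each passed (53.5% of all genes passed in that comparison). In Asxl1-/- alone the 4 genes differed by 0.79, 0.93, 1.02 and 0.67, and none passed (22.5% of all genes did). Set directly against Jak2V617F, Asxl1-/-Jak2V617F was lower for Cd163 (-1.23, adjusted p = 0.0177), a call lost without a filter (0.0671) and without Asxl1-/-Jak2V617F 1 (0.0707). Axl (-1.30, adjusted p = 0.146), Mrc1 (-1.43, adjusted p = 0.0917) and Siglec1 (0.14, adjusted p = 0.922) did not pass, where 44.3% of all genes did. With DESeq2 Mrc1 passed (-1.46, adjusted p = 0.0458). Mertk, added here after its value was seen, was lower by -3.26 (adjusted p = 0.00991). Against Asxl1-/-, where 5.53% of genes passed, all 4 were lower, by -5.87 for Siglec1 (adjusted p = 0.0118, and 0.0502 without Asxl1-/-Jak2V617F 2) to -3.84 for Cd163 (adjusted p = 0.00238).

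A few genes were far higher in the double lesion than in WT. C2cd4a, which encodes a nuclear C2 domain protein, stood at 17.7, 13 and 15.8 CPM against 0.112, 0.338 and 0.241 CPM, a log2 fold change of 6.03 ± 0.31 (adjusted p = 4.53e-06). Podxl, the anti-adhesive sialomucin podocalyxin, was read at 93.7, 112 and 166 CPM against 1.68, 2.59 and 6.15 CPM (5.17 ± 0.41, adjusted p = 0.0015). Cda, cytidine deaminase of pyrimidine salvage, was read at 6.4, 5.21 and 8.67 CPM against 0.559, 0.225 and 0.301 CPM (4.19 ± 0.40, adjusted p = 0.00104). These 3 genes were chosen among called genes whose groups did not overlap, so that separation is no further result. All 13 alternatives kept the call. Sfrp4, a secreted Wnt inhibitor chosen after its values were seen, was read at 10.1, 15.5 and 18 CPM against 3.36, 1.07 and 2.89 CPM (2.57 ± 0.37, adjusted p = 0.00683). Tcrg-C1, a T cell receptor gamma constant segment also chosen after its values were seen, was read at 15.4, 10.1 and 23.8 CPM against 1.4, 0.62 and 0.904 CPM (4.06 ± 0.46, adjusted p = 0.00442). Summed markers of T and NK cells were 4.8 to 6.71 CPM against 4.4 to 12.9 CPM, so the 2 groups overlapped there. Fam124a was uneven, at 0.954, 6.35 and 12 CPM against 0.112, 0.282 and 0.181 CPM (5.01 ± 0.92, adjusted p = 0.0126). It lost its call without WT 2 (0.0538) or WT 3 (0.0513).

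These genes were higher still with Jak2V617F alone. C2cd4a was lower in Asxl1-/-Jak2V617F than in Jak2V617F by -1.49 (adjusted p = 0.000119), Podxl by -1.55 (adjusted p = 0.00395), Cda by -1.28 (adjusted p = 0.00564) and Tcrg-C1 by -2.34 (adjusted p = 0.000676) on the log2 scale. The interaction, which measures by how much the double lesion departs from the sum of both single-lesion differences, passed for 41.6% of genes. It was -2.87 for C2cd4a (adjusted p = 0.00102), -2.95 for Podxl (adjusted p = 0.00323) and -1.88 for Cda (adjusted p = 0.0292), which lost its call without Asxl1-/-Jak2V617F 2 (0.0501), WT 2 (0.0721) or WT 3 (0.0634). Tfrc, the transferrin receptor, was the only 1 of 29 erythroid members that rose (3.45%, against 8.3% of all genes). It went from 361, 259 and 348 CPM to 721, 514 and 1090 CPM (1.26 ± 0.25, adjusted p = 0.0142) and lost the call without WT 2 (adjusted p = 0.0614). None of 4 globin genes passed. Hba-a1 was read at 39, 41.7 and 102 CPM against 57.2, 56.3 and 72.2 CPM. Hba-a2, with 67, 75 and 53 counts against 33, 31 and 21, passed in the fit of the 6 libraries alone (1.24, adjusted p = 0.0321). It also passed in the fit without the Jak2V617F libraries (1.21, adjusted p = 0.0161).

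Immediate early genes, which cells switch on within minutes of growth factor or stress signals, made up the next group. Of 36 tested members 12 were higher (33.3%) and 0 lower, and the median log2 fold change was 0.62. The shares over all genes, 8.3% higher and 6.76% lower, are the background for this and each later list. They are not matched for abundance, and 583 of 2514 genes at 100 CPM or more were higher, but 72 of 5762 under 5 CPM. The count of higher members was 12 without Asxl1-/-Jak2V617F 3 and 14 without WT 1, and DESeq2 also gave 14. It fell to 7 without Asxl1-/-Jak2V617F 1, to 8 without Asxl1-/-Jak2V617F 2, to 5 without WT 2 or WT 3 and to 7 without a filter on low counts.

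Fos, an AP-1 subunit, was read at 246, 263 and 311 CPM with both lesions and at 77.5, 25.1 and 23.7 CPM in WT (2.70 ± 0.45, adjusted p = 0.0116). Junb, a partner of Fos, was read at 168, 114 and 168 CPM against 55.3, 46.5 and 37.4 CPM (1.69 ± 0.21, adjusted p = 0.00442). Dusp1, a phosphatase that turns off MAP kinases, was read at 129, 124 and 180 CPM against 43.5, 21.9 and 12.3 CPM (2.48 ± 0.40, adjusted p = 0.01). WT 1 was the highest WT library for each of these 3 genes and still lay below all libraries with both lesions. Ier2 (0.85 ± 0.15, adjusted p = 0.00854) and Gadd45a (0.88 ± 0.13, adjusted p = 0.00683) rose less, and all 5 genes kept their calls in the 13 alternatives. Jun, the main partner of Fos, stood at 412, 390 and 387 CPM against 132, 8.79 and 42.1 CPM. Its wide WT spread left it just short (2.70 ± 0.78, adjusted p = 0.0546), and it passed without WT 1 (adjusted p = 0.00647), under a stricter filter (0.0396) and with DESeq2 (0.004).

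Egr1, a zinc finger factor of the same response, was read at 43.3, 32.5 and 49.2 CPM against 7.95, 2.42 and 7.05 CPM (2.84 ± 0.58, adjusted p = 0.0177). The groups did not overlap, but the call was lost without WT 2 (adjusted p = 0.0578) or WT 3 (0.0549). Fosb rose from 11, 0.169 and 1.33 CPM to 45, 70.5 and 109 CPM (4.16 ± 1.08, adjusted p = 0.0402) and lost its call in 8 of 13 alternatives (adjusted p up to 0.119). Against Jak2V617F alone, Asxl1-/-Jak2V617F was higher for Fos by 2.84 (adjusted p = 0.00113), for Dusp1 by 1.97 (adjusted p = 0.00304) and for Junb by 1.03 (adjusted p = 0.00212). Against Asxl1-/- alone the differences in Fos (1.62, adjusted p = 0.106), Dusp1 (1.62, adjusted p = 0.074) and Junb (0.80, adjusted p = 0.074) did not pass. With DESeq2 all 3 did (adjusted p = 0.0237, 0.0119 and 0.00713), and so did Fos and Dusp1 without WT 1 (0.00341 and 0.0117), Dusp1 without WT 3 (0.0206) and Junb without Asxl1-/-Jak2V617F 2 (0.0432).

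Among STAT targets and feedback genes, 4 of 21 tested members were higher and 0 lower, with a median log2 fold change of 0.21. The higher members were Pim1, Socs3, Osm and Ccnd2, and their number was 6 without WT 1, 2 without WT 2 or Asxl1-/-Jak2V617F 2 and 1 without WT 3. Pim1, a survival kinase transcribed in response to STAT5, was read at 186, 177 and 109 CPM against 74, 52.7 and 47.3 CPM (1.44 ± 0.21, adjusted p = 0.00684) and kept its call throughout. Socs3, which shuts off JAK kinases, was read at 21.3, 13.9 and 7.45 CPM against 3.19, 5.47 and 1.27 CPM (2.10 ± 0.49, adjusted p = 0.0219), and Osm, an inflammatory cytokine, at 50.9, 32.7 and 86.1 CPM against 24.2, 15.1 and 19.4 CPM (1.53 ± 0.32, adjusted p = 0.0177). Socs3 lost its call in 5 alternatives (adjusted p = 0.053 to 0.0636) and Osm in 3, namely without WT 2 (0.0735), without WT 3 (0.0603) and without a filter (0.052). Of 35 JAK-STAT kinases, factors and cytokine receptors, only Jak2 was higher and only Stat2 lower (2.86% each way). Stat2 (-0.74 ± 0.19, adjusted p = 0.0299) lost its call in 7 alternatives (adjusted p up to 0.0901). The higher count was 4 without Asxl1-/-Jak2V617F 3 and 0 without any other 1 library, and the lower count was 2 without WT 1 and 0 without any other 1 library. Over the other alternatives the higher count reached 4 and the lower 3.

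In a TNF and NF-kB list 5 of 34 members were higher (14.7%) and 1 lower (2.94%), with a median log2 fold change of 0.09. The higher count was 2 without Asxl1-/-Jak2V617F 1, 3 without Asxl1-/-Jak2V617F 2 and 0 without WT 2 or WT 3. Nfkb1, Nfkbib, Nfkbiz, Cxcl2 and Ptgs2 rose and Il1a fell. Cxcl2, a neutrophil-attracting chemokine, was read at 29.5, 14.2 and 29.2 CPM against 2.41, 0.338 and 0.603 CPM (4.43 ± 0.81, adjusted p = 0.0128). Ptgs2, the prostaglandin synthase COX-2, was read at 9.21, 3.89 and 18.7 CPM against 1.9, 0.733 and 0.362 CPM (3.39 ± 0.71, adjusted p = 0.0164). Without WT 2 or WT 3 the adjusted p became 0.0503 and 0.051 for Cxcl2 and 0.0719 and 0.0547 for Ptgs2. Tnf itself, at 16.2, 12.1 and 5.99 CPM against 12.9, 8.62 and 10.1 CPM, overlapped between the groups (0.12 ± 0.31, adjusted p = 0.816).

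**Figure D3:**
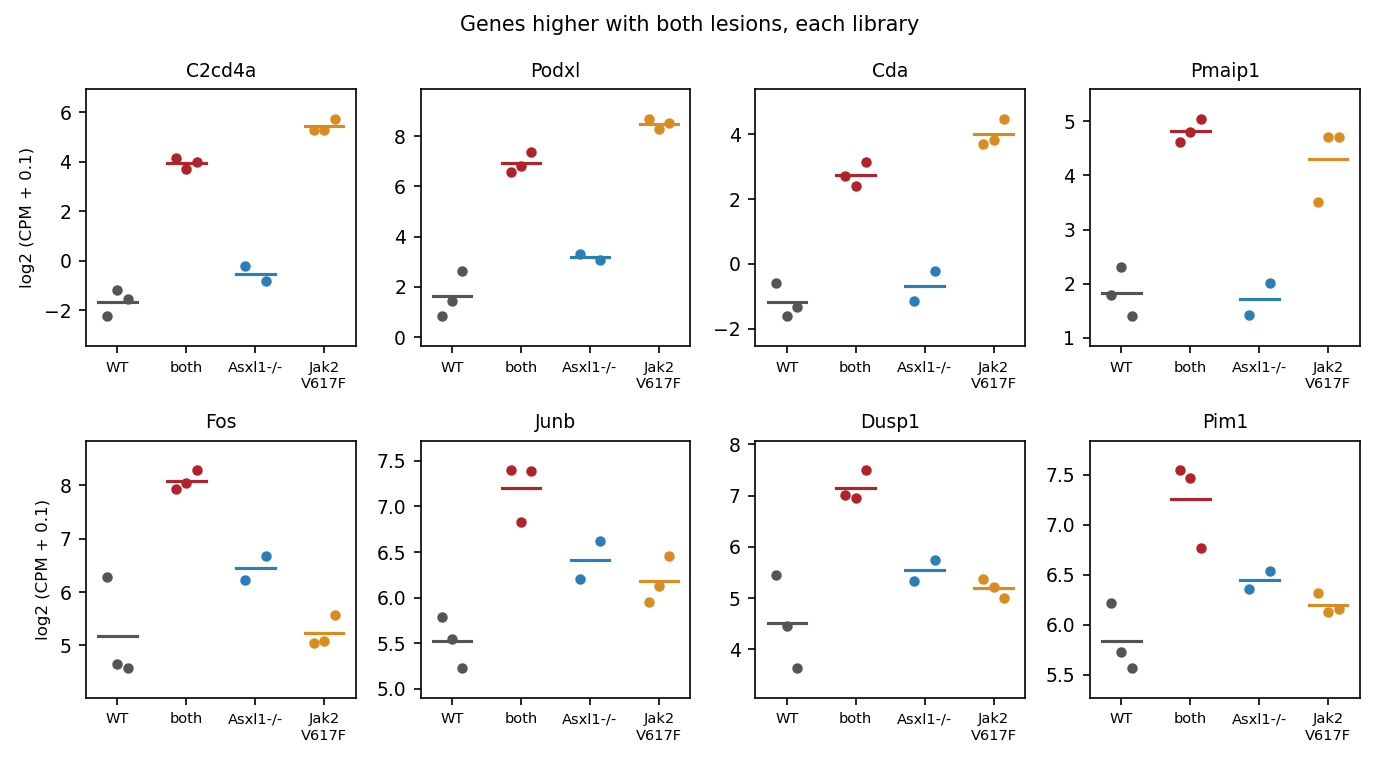
Each point is 1 library and each bar the mean of its genotype on a log2 (CPM + 0.1) axis; "both" is Asxl1-/-Jak2V617F. C2cd4a, Podxl and Cda lie between WT and Jak2V617F with both lesions, whereas Fos, Junb, Dusp1 and Pim1 are highest there.

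Promoters of 4 genes of the lists that were called higher and hold 1 of the motifs searched are shown to give the sequence context. Each is the 250 bases before the RefSeq transcript start, 5′ to 3′ on the gene's strand in GRCm38.p6, with motif matches in capitals. Dusp1 lies at chr17:26508473-26508722 (- strand), Zfp36 at chr7:28379229-28379478 (- strand), Socs3 at chr11:117969367-117969616 (- strand) and the first of the Ldha starts at chr7:46845554-46845803 (+ strand).
Dusp1: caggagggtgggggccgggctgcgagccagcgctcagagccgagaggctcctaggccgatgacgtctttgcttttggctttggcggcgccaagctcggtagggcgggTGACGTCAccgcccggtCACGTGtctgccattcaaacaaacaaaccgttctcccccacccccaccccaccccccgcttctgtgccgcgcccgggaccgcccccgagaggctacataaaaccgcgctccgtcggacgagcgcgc
Zfp36: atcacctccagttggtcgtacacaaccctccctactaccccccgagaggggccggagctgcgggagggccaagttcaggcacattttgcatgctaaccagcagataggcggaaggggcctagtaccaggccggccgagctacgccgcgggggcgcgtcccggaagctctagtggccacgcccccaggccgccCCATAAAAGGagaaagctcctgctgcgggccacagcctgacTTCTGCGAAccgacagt
Socs3: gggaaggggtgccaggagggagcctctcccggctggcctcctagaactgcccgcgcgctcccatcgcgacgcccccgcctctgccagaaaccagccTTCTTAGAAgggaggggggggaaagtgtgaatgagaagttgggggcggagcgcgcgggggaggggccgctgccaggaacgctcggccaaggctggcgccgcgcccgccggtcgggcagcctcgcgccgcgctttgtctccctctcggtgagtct
Ldha: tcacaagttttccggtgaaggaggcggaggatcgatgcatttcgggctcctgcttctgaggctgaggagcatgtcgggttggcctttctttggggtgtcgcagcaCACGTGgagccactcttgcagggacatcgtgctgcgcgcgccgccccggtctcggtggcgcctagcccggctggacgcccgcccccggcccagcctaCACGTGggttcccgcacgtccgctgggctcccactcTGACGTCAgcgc
Capitals mark the CRE element TGACGTCA and the E-box CACGTG in Dusp1, the CArG box and a STAT-type TTCNNNGAA in Zfp36, a STAT-type TTCNNNGAA in Socs3, and the E-box in 2 places and the CRE in Ldha. Both strands were searched, and no match overlaps another. The palindromic CRE ends 136 bases before the Dusp1 start, and the STAT-type match ends 146 bases before the Socs3 start. Of 10857 tested genes with a promoter in the table, 7.26% held the STAT-type motif, 1.44% the CArG box, 9.67% the E-box and 2.93% the CRE. The shares among the 1028 such genes called higher were 7.78%, 1.07%, 12.4% and 3.5%, and among the 791 called lower 6.32%, 1.77%, 10.4% and 1.52%. A match is a description of these letters in this window, and no factor was measured there. Zfp36, which encodes an mRNA-decay factor of the immediate early response, rose from 113, 59.5 and 65.6 CPM to 252, 181 and 145 CPM (1.28 ± 0.32, adjusted p = 0.0323), but lost its call in 6 of 13 alternatives.

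Of 30 genes for ribosome biogenesis with Myc, 20 were higher (66.7%) and 1 lower (3.33%), with a median log2 fold change of 0.49. The higher count was 18 without Asxl1-/-Jak2V617F 3, 25 without WT 1 and 12 without WT 2. Nhp2 and Gar1 belong to the particle that guides pseudouridylation of ribosomal RNA. Nhp2 was read at 170, 189 and 187 CPM against 126, 93.6 and 105 CPM (0.75 ± 0.11, adjusted p = 0.00619). Gar1 was read at 116 to 120 CPM against 68.4 to 85.7 CPM (0.60 ± 0.09, adjusted p = 0.00683). Ncl, the abundant nucleolar protein nucleolin, was read at 1745, 1879 and 2235 CPM against 1397, 1120 and 1329 CPM (0.61 ± 0.12, adjusted p = 0.0119). The groups were apart in each, and Srm (0.72), Mybbp1a (0.63), Nop2 (0.51) and Utp20 (0.48) likewise kept their calls in all 13 alternatives. Myc did not pass, at 271, 291 and 152 CPM against 230, 165 and 161 CPM (0.36 ± 0.23, adjusted p = 0.311), but did without Asxl1-/-Jak2V617F 3 (0.60, adjusted p = 0.0367). The lower member, Mycn, stood at 3.98, 2.8 and 2.87 CPM against 8.67, 6.88 and 5.43 CPM (-1.12 ± 0.31, adjusted p = 0.0342) and lost its call in 7 of 13 alternatives.

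Cytosolic ribosomal protein genes, picked by their symbols after values were seen, were higher in 29 of 82 (35.4%) and lower in 0. The other 53 did not pass, and the median was 0.39. Asxl1-/-Jak2V617F was below Jak2V617F for Nhp2 (-0.31, adjusted p = 0.0326), Srm (-0.31, adjusted p = 0.0472) and Mybbp1a (-0.36, adjusted p = 0.0131). Nhp2 lost that call without Asxl1-/-Jak2V617F 1 (0.104), and Srm lost it in 5 alternatives (0.0506 to 0.104), the omission of each Asxl1-/-Jak2V617F library and of WT 3 among them. In Asxl1-/- alone the 3 genes were above WT by 0.70, 0.90 and 0.49, and the interaction was -1.01 for Nhp2 (adjusted p = 0.000622).

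Of 30 chaperones and genes of the heat shock and endoplasmic reticulum stress responses, 15 were higher and 0 lower, with a median of 0.67. The count was 16 without Asxl1-/-Jak2V617F 3, 15 without WT 1 and 5 without WT 2. Hsp90ab1, a constitutive cytosolic chaperone, was read at 3371, 3725 and 3784 CPM against 2477, 1994 and 2368 CPM (0.67 ± 0.12, adjusted p = 0.0081). Pdia6, a disulphide isomerase of the endoplasmic reticulum, was read at 603, 566 and 442 CPM against 331, 318 and 332 CPM (0.71 ± 0.11, adjusted p = 0.00683). Manf (0.72) and Dnajb11 (0.55) of the same compartment, and Pdia3 (0.64), another isomerase there that was listed with MHC class I assembly, also kept their calls in every alternative. Calr, which encodes calreticulin and is itself a myeloproliferative driver gene when mutated, was read at 2548, 2394 and 1784 CPM against 1431, 1164 and 1235 CPM (0.81 ± 0.16, adjusted p = 0.0115) and lost its call without WT 2 (adjusted p = 0.0504). Hspa5 (BiP, 0.83 ± 0.18, adjusted p = 0.0168) lost its own without WT 2 (0.0693) or Asxl1-/-Jak2V617F 1 (0.0507). Pdia6, Manf and Pdia3 were lower than WT in Jak2V617F alone, by -0.79, -0.40 and -0.36, each past the threshold; for Pdia6 the interaction was 0.96 (adjusted p = 0.00115).

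Glycolysis genes were higher in 9 of 24 (37.5%) and lower in 0, with a median of 0.33. The higher count was 10 without Asxl1-/-Jak2V617F 3 or WT 1, 5 without WT 2 or Asxl1-/-Jak2V617F 2 and 4 without WT 3. Ldha, which makes lactate, was read at 872, 867 and 948 CPM against 578, 552 and 570 CPM (0.66 ± 0.07, adjusted p = 0.00342). Pfkl, the liver-type phosphofructokinase, was read at 132, 142 and 136 CPM against 97.6, 97 and 98.3 CPM (0.49 ± 0.07, adjusted p = 0.00505). Pgk1 (0.44) and Tpi1 (0.45) also kept their calls in all 13 alternatives. Ldha was above WT by similar amounts in the single lesions, 0.55 in Jak2V617F and 0.58 in Asxl1-/-, and its interaction was -0.47 (adjusted p = 0.0065). Of 47 DNA replication genes 8 were higher (17.0%) and 0 lower (median 0.21). The higher count was 23 without WT 1, but 4 without Asxl1-/-Jak2V617F 3, 2 without Asxl1-/-Jak2V617F 1, 1 without Asxl1-/-Jak2V617F 2 and 0 without WT 2 or WT 3. Mitosis genes were higher in 3 (Aurka, Mad2l1, Cks2) and lower in 3 (Kif23, Anln, Knl1) of 44, and 0 either way without WT 2 or WT 3. Each share, 6.82%, was near that over all genes, 8.3% higher and 6.76% lower.

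**Figure D4:**
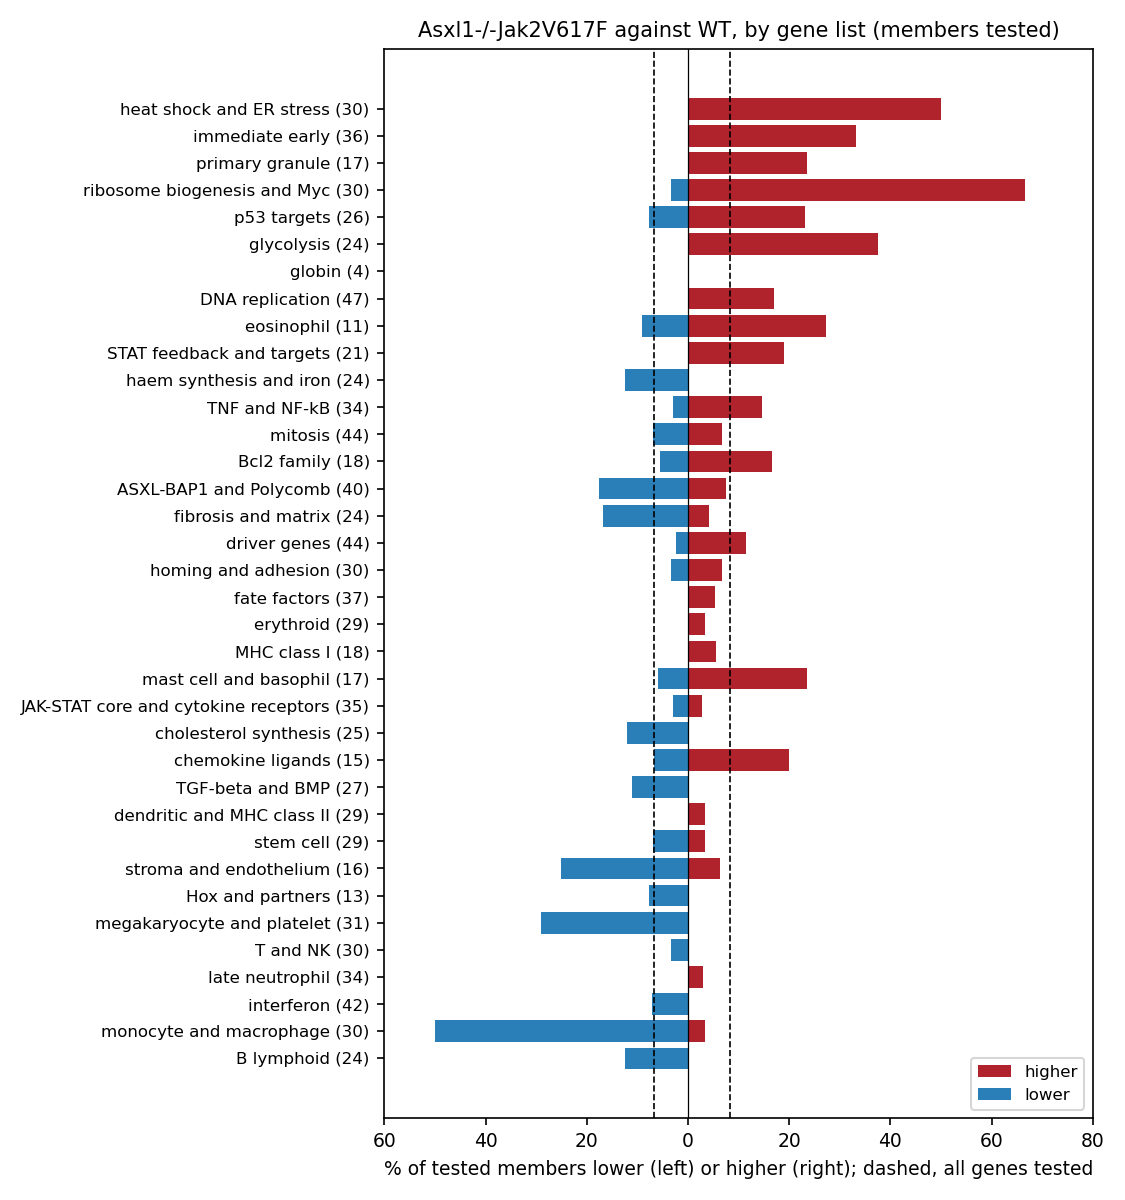
Bars give the percentage of tested members of each gene list that were higher (red, right) or lower (blue, left) in Asxl1-/-Jak2V617F than in WT, ordered by the list's median log2 fold change; dashed lines mark 8.3% and 6.76%, the shares over all genes tested. Ribosome biogenesis (20 of 30), chaperones (15 of 30) and glycolysis (9 of 24) extend furthest to the right, and monocyte and macrophage genes (15 of 30) furthest to the left. The dashed lines are not matched for abundance. Of 2514 genes with a mean of 100 CPM or more 583 were higher, and of 5762 under 5 CPM 72.

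Polycomb and Bap1 complex genes, the partners of Asxl1, were higher in 3 (Suz12, Rbbp7, Bmi1) and lower in 7 of 40, with a median of 0.02. The share higher, 7.5%, was near the 8.3% of all genes, and the share lower was 17.5% against 6.76%. The 7 include Asxl1 itself, and the number was 4 without any 1 of Asxl1-/-Jak2V617F 1, Asxl1-/-Jak2V617F 2 and WT 2. The higher count was 6 without WT 1, 2 without Asxl1-/-Jak2V617F 1, Asxl1-/-Jak2V617F 3 or WT 3 and 1 without WT 2. Ogt, the O-GlcNAc transferase bound to the Bap1 complex, was read at 200, 218 and 206 CPM against 305, 418 and 376 CPM (-0.82 ± 0.11, adjusted p = 0.00442). Cbx6, a Polycomb reader subunit, was read at 38.5, 39.5 and 47.4 CPM against 80, 59.9 and 67.4 CPM (-0.73 ± 0.13, adjusted p = 0.0102). Pcgf2, a core subunit of Polycomb repressive complex 1, was scarce, at 0.73, 1.49 and 0.855 CPM against 4.53, 3.94 and 2.89 CPM (-1.88 ± 0.39, adjusted p = 0.0132). Rbbp7, a histone-binding subunit, rose (0.39 ± 0.07, adjusted p = 0.0109). These 4 calls held in all 13 alternatives. Ogt and Pcgf2 were also lower than WT in Asxl1-/- alone (-0.95 and -1.50) and not detectably changed in Jak2V617F alone (-0.23 and -0.43). Against Asxl1-/- neither difference passed (0.13 for Ogt, adjusted p = 0.581, and -0.38 for Pcgf2, adjusted p = 0.664).

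Of 26 p53 targets 6 were higher (23.1%) and 2, Mdm4 and Ddb2, lower (7.69%), with a median of 0.38. The higher count was 11 without WT 1, 3 without Asxl1-/-Jak2V617F 1, 4 without WT 3 and 2 without WT 2. Pmaip1, the cell death gene Noxa, was read at 24.5, 27.8 and 33 CPM against 3.36, 4.85 and 2.53 CPM (2.98 ± 0.35, adjusted p = 0.00442). Perp, a membrane protein of the same list, was read at 7.75, 6.35 and 4.28 CPM against 1.96, 2.59 and 1.45 CPM (1.61 ± 0.29, adjusted p = 0.00962). Both kept their calls in all 13 alternatives. Pmaip1 was above WT by 2.55 in Jak2V617F and at -0.14 in Asxl1-/-, whereas Perp was at -3.01 in Jak2V617F and 1.39 in Asxl1-/-.

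**Figure D5:**
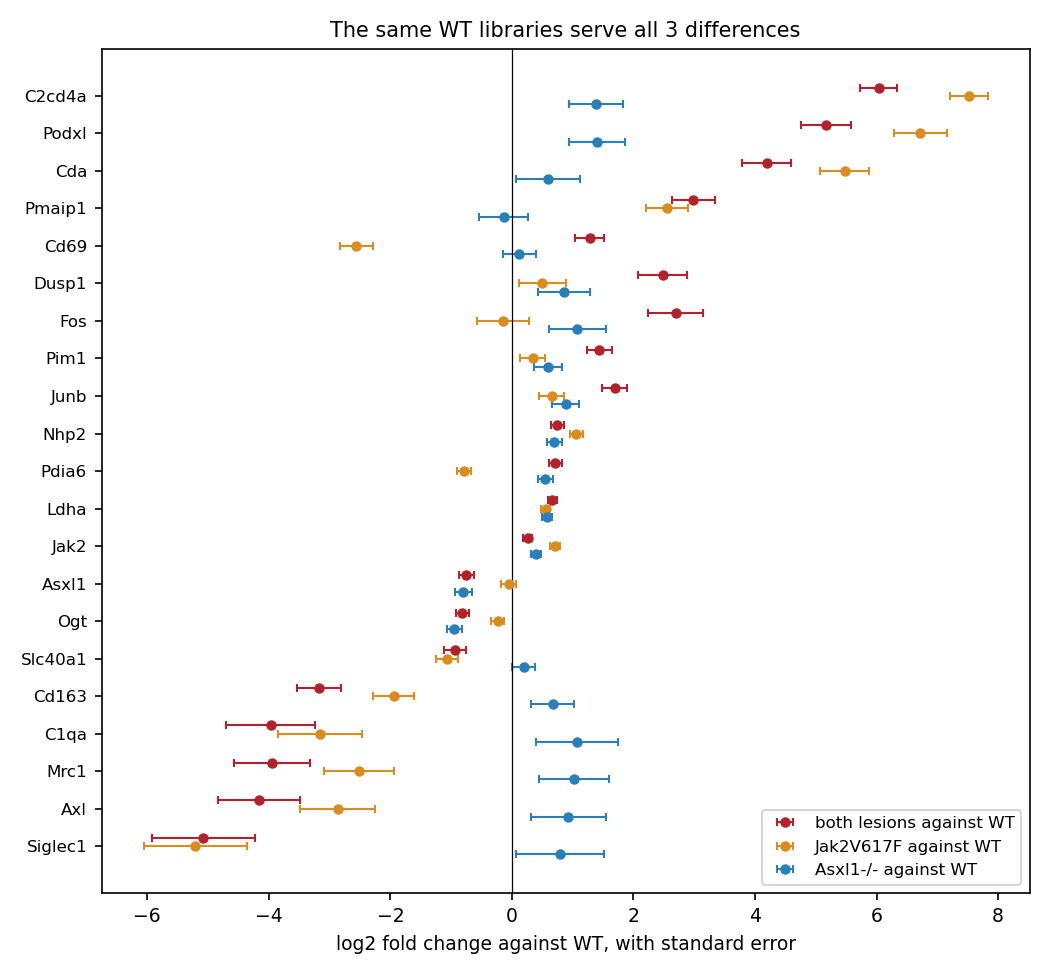
Points are log2 fold changes against WT with their standard errors for Asxl1-/-Jak2V617F (red), Jak2V617F (orange) and Asxl1-/- (blue); all 3 differences use the same WT libraries and are therefore not independent. For the macrophage genes and for C2cd4a, Podxl, Cda and Pmaip1 the double lesion lies on the side of Jak2V617F, for Asxl1 and Ogt beside Asxl1-/-, and for Fos and Dusp1 above both.

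Other lineage lists had fewer calls. Megakaryocyte and platelet genes were lower in 9 of 31 (29.0%) and higher in 0 (median -0.41). The lower count was 12 without WT 1, 6 without Asxl1-/-Jak2V617F 3, 2 without Asxl1-/-Jak2V617F 2 or WT 3 and 1 without Asxl1-/-Jak2V617F 1 or WT 2. Pf4, the platelet chemokine, was read at 5.22, 8.47 and 6.53 CPM against 15.5, 11.8 and 10.4 CPM (-0.90 ± 0.23, adjusted p = 0.0255). Itgb3, the platelet integrin chain, was read at 23.2, 26 and 27.3 CPM against 37.1, 57.5 and 48.6 CPM (-0.91 ± 0.22, adjusted p = 0.025). Their groups did not overlap, but Pf4 lost its call in 3 alternatives (without WT 1 among them, adjusted p = 0.0644) and Itgb3 in 4. Itga2b, its partner chain, did not pass (-0.41 ± 0.16, adjusted p = 0.0959).

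B lymphoid genes were lower in 3 of 24 (Cd22, Rag2 and Cd72, 12.5%), and all 24 fitted values were negative with a median of -1.65. Without Asxl1-/-Jak2V617F 3, 16 passed, and 0 without any 1 of Asxl1-/-Jak2V617F 1, Asxl1-/-Jak2V617F 2, WT 2 and WT 3. Vpreb1, the surrogate light chain of early B cells, stood at 3.76, 3.03 and 13.2 CPM against 34, 16.2 and 28.3 CPM (-1.98 ± 0.58, adjusted p = 0.0514, and 0.00956 without Asxl1-/-Jak2V617F 3). Late neutrophil genes were higher in 1 of 34, Stfa2 (2.94%, median -0.53), and lower in 0, although the fit of the 6 libraries alone called 6 and the fit without the Jak2V617F libraries 10. Camp, the cathelicidin of neutrophil granules, stood at 2500, 2078 and 2758 CPM against 3349, 4645 and 4844 CPM (-0.81 ± 0.29, adjusted p = 0.0859). Primary granule genes were higher in 4 of 17 (Prss57, Nkg7, Srgn and Calr), or 23.5%, with a median of 0.56. The higher count was 10 without Asxl1-/-Jak2V617F 3, 0 without WT 2 and 1 without WT 3 or either other Asxl1-/-Jak2V617F library. Interferon-stimulated genes were lower in 3 of 42 (Stat2, Ifit3b and Mx2), or 7.14% against 6.76% of all genes, with a median of -0.82. The count was 7 without WT 1, 1 without WT 2 or Asxl1-/-Jak2V617F 3 and 0 without WT 3 or without Asxl1-/-Jak2V617F 1 or 2. WT 3 was the highest library for Ifit3b, which fell from 1.12, 1.8 and 9.22 CPM to 0.449, 0.458 and 0.428 CPM (-3.16 ± 0.92, adjusted p = 0.0462) and lost its call in 7 alternatives (adjusted p up to 0.162).

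Summed markers of other marrow cells are given here because the bead enrichment could carry them. Late neutrophil markers summed to 24000 to 29700 CPM with both lesions and 32800 to 49200 CPM in WT, and B cell markers to 23.4 to 90.9 CPM against 143 to 176 CPM. Endothelial markers summed to 6.65 to 12.3 CPM against 16.3 to 28.3 CPM, and these 3 sums did not overlap between the groups. Monocyte and macrophage markers (878 to 1360 CPM against 1340 to 1830 CPM), erythroblast markers (104 to 368 CPM against 147 to 221 CPM), mast cell and basophil markers (67.6 to 93.1 CPM against 79.5 to 172 CPM), plasma cell markers (248 to 376 CPM against 230 to 348 CPM) and stromal markers (6.53 to 12.3 CPM against 4.64 to 12.5 CPM) overlapped. The largest part of the monocyte and macrophage sum was the monocyte gene Ly6c2, and 4 of the 8 markers in that sum were called lower and 0 higher. Progenitor markers summed to 6940 to 12000 CPM against 6470 to 7780 CPM and overlapped too, with 0 of the 6 markers called higher and 0 lower. No marker was at 0 in all 6 libraries. The part of cell composition in the gene differences was not tested.

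Some genes set the double lesion apart from every other genotype. By all 3 contrasts 13 genes were higher in Asxl1-/-Jak2V617F than in WT, Jak2V617F and Asxl1-/- (0.0799%), and 69 were lower (0.424%). Cd69, an early activation receptor of blood cells, was read at 38.7, 45.5 and 55 CPM against 25.4, 15.1 and 16.9 CPM in WT (1.28 ± 0.24, adjusted p = 0.0114), 2.47, 4.56 and 2.64 CPM in Jak2V617F and 19.5 and 22 CPM in Asxl1-/-. Each library with both lesions was thus above all 8 others, and the difference from Asxl1-/- was 1.16 (adjusted p = 0.0361). That call was lost without Asxl1-/-Jak2V617F 2 (0.0798), without Asxl1-/-Jak2V617F 3 (0.0821) and with the replicate block (0.087). Among the lower genes, Ccr3, the eotaxin receptor, was read at 0.337, 0.286 and 0.855 CPM against 18.9, 15.3 and 45.8 CPM in WT (-5.76 ± 0.75, adjusted p = 0.00683), 2.47, 7.06 and 2.06 CPM in Jak2V617F and 38.7 and 58.6 CPM in Asxl1-/-. Its difference from Jak2V617F lost its call without Asxl1-/-Jak2V617F 1 (adjusted p = 0.0523). Ccr3 is known from eosinophils, yet the eosinophil granule genes Prg2 (0.98), Epx (1.13) and Ear6 (1.38) were higher than WT, with calls lost in 7, 7 and 4 alternatives. Col14a1, a fibril-associated collagen, was read at 0.281, 0 and 0.427 CPM against 17.4, 15.3 and 24.5 CPM in WT (-6.31 ± 0.81, adjusted p = 0.00683). Vstm4 had no read in any of the 3 libraries with both lesions against 3.08 ± 1.46 CPM in WT (SD, n = 3), which is at least 53.1-fold lower when 3 counts over the group are taken as the floor.

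In 36.5% of all genes tested the 3 libraries with both lesions did not overlap with the 3 WT libraries, which is the background for every statement above that groups were apart. Genes near the targeted alleles were called about as often as elsewhere, 12.3% of 138 within 5 Mb of Asxl1 and 16.7% of 48 within 5 Mb of Jak2. Over all genes 6.76% were lower and 8.3% higher. Of 466 lincRNA genes 54 were lower (11.6%) and 1 higher (0.215%), and of 530 antisense genes 48 were lower (9.06%) and 1 higher (0.189%). Processed pseudogenes, whose reads can be shared with their parent genes, had more higher than lower calls, 44 of 849 (5.18%) and 7 (0.824%). Both shares were below those over all genes. Of the lincRNA genes, Gm38102 was read at 1.24, 1.49 and 1.83 CPM against 5.54, 7.33 and 6.51 CPM (-2.09 ± 0.24, adjusted p = 0.00371) and was lower still in Asxl1-/- alone, at 0.584 and 0.697 CPM. Gm19590, at 2.98, 2.29 and 3.12 CPM against 8.56, 8.73 and 7.78 CPM (-1.58 ± 0.20, adjusted p = 0.00442), followed Jak2V617F instead, with -2.05 there and 0.13 in Asxl1-/-. Both calls held in all 13 alternatives. Long non-coding and related classes together took 0.895% to 1.01% of counts with both lesions and 1.11% to 1.29% in WT, and their part in these calls was not tested.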

How the data were processed

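The authors deposited raw read counts per gene for 11 RNA-seq libraries in 1 table. Per the submitters' processing notes, HISAT2 2.0.5, featureCounts 1.5.0-p3 and DESeq2 1.16.1 were used with mm10; no source used here states strandedness or how multiply mapping reads were treated, so antisense pairs and near-identical copies are uncertain. All 11 libraries were fitted together with edgeR 4.0.16 in R 4.3.3 (TMM scaling, filterByExpr, robust quasi-likelihood F-test, Benjamini-Hochberg over 16262 genes, threshold 0.05), so that 4 genotypes share 1 estimate of the spread (common biological coefficient of variation 19.7%). Log2 fold changes are edgeR's, ± SE. CPM are TMM-scaled. Totals ran from 16198011 to 18535292, which limits low genes to a few reads. The script was tested on simulated data.

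Named genes were Asxl1, Jak2, Kit, Egr1 and Tnf. Of protein-coding genes called without overlap, the 12 each way of largest fold change (mean of at least 5 CPM in the higher group) and the 8 each way of largest CPM difference were taken. Up to 5 members of smallest p came from each of 36 gene lists, 6 each way from genes set apart from all other genotypes, and up to 4 each from lincRNA genes and from called genes near each targeted locus; those not described are counted only. Further list members and genes marked as such were added after their values were seen. The comparison, the lists and the rule were chosen with earlier results of these data known. Lists have counts and medians, with no test. Alternatives were DESeq2 1.42.0, median-of-ratios scaling, other filters, other sets of libraries, a replicate block and leaving out each library. The 10 chromatin samples were not used.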

Additional observations from a re-analysis of the deposited data

Results flagged for a closer look

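Among Asxl1, Jak2, Kit, Egr1, Tnf and the 12 genes each way of largest fold change, leaving out those with no reads in a genotype, 13 departed in the double lesion from the sum of the single-lesion differences (edgeR interaction term, adjusted p under 0.05, as for 41.6% of all genes tested). All 4 genotypes enter this value, including the 2 Asxl1-/- libraries, and no explanation was tested. It was negative, on the log2 scale, for Col14a1 (-4.2, adjusted p = 0.012), Ccr3 (-3.85, adjusted p = 0.0123), Mertk (-3.63, adjusted p = 0.0229), Spic (-3.49, adjusted p = 0.0224) and Abcc3 (-3.05, adjusted p = 0.0178). For these 5 genes the fitted differences from WT were negative in Jak2V617F (all but Mertk passed, adjusted p = 0.052) and positive in Asxl1-/-, where none passed. The interaction lost its call in 4 alternatives for Mertk (adjusted p = 0.0535 to 0.0765), in 3 for Spic (0.0501 to 0.0736) and in 2 for Abcc3 (0.0537 and 0.0708); leaving out Asxl1-/-Jak2V617F 1 or 2 was among them for Mertk and Spic. It was also negative for 3 genes raised in both Jak2V617F groups, Podxl (-2.95, adjusted p = 0.00323), C2cd4a (-2.87, adjusted p = 0.00102) and Cda (-1.88, adjusted p = 0.0292), and for Jak2 itself (-0.85, adjusted p = 0.000273). Of these, Cda lost its call without Asxl1-/-Jak2V617F 2, WT 2 or WT 3 (0.0501 to 0.0721).

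The departure was positive for Tnf (1.97, adjusted p = 0.00776), Cxcl2 (3.58, adjusted p = 0.0431), Ptgs2 (4.09, adjusted p = 0.0151) and Clu (4.96, adjusted p = 0.00399). Cxcl2 lost this call without a filter (0.123), with the replicate block (0.0837), without Asxl1-/-Jak2V617F 1 (0.0793) or 3 (0.0744) and without WT 1 (0.149), and Ptgs2 without a filter (0.0579). Tnf differed from WT by -2.11 on the log2 scale in Jak2V617F (adjusted p = 0.000266) and by 0.12 with both lesions (adjusted p = 0.816). Clu, the secreted chaperone clusterin, was uneven with both lesions, at 30.2, 13.3 and 3.91 CPM against 1.62, 2.59 and 2.35 CPM in WT, and its call against WT was lost in 4 of 13 alternatives.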

How the results depend on the processing

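No alternative reversed the direction of any of the 177 named genes called in the main fit. Changes of sign among the named genes that were not called there were not counted. Of 3056 values for 237 named genes over 13 alternatives, 2471 kept their side of the threshold, 484 lost a call and 101 gained one. Of 936 list counts, 316 moved by more than 1.5 times. With DESeq2, 2049 genes were higher instead of 1350, and 3455 changed in all. The other scaling, the filters and the other sets of libraries kept all 6 genome-wide counts within 1.5 times. Leaving out 1 library gave 531 (without WT 2) to 3493 (without WT 1) genes changed against 2449, with 272 to 2214 higher and 259 to 1279 lower. At least 2-fold changes numbered 210 to 920 against 683, with 31 to 238 higher and 169 to 682 lower. These fits have fewer samples, and an arm of 2 libraries. The share of calls that were higher was 50.4% to 69.1% over all alternatives.

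Same-numbered libraries did not deviate together (correlations of -0.00732, -0.199 and 0.0922), so the numbers were not taken to pair them. With the replicate block, 2466 genes changed, 1425 higher and 1041 lower. Calls lost when single libraries were left out included Jak2, near the threshold, but also Egr1, Cxcl2 and the C1q genes. Low genes such as Cd209f and Timd4 rest on few reads.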

Other observations

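Gm9825 and Atp6v0c-ps2, processed pseudogenes on chromosome 6 chosen after their values were seen, differed sharply between libraries. Gm9825 was close to on or off by library. Atp6v0c-ps2 also had a middle level, at 39.5 CPM in Asxl1-/-Jak2V617F 3 and 33.3 and 32.5 CPM in Jak2V617F 1 and 2. Gm9825 (chr6:7982541-7983383, - strand, mm10) was read at 46.6, 43.1 and 47.8 CPM in Asxl1-/-Jak2V617F, 48.4 and 46.9 CPM in Asxl1-/-, 51.2, 49.8 and 0.95 CPM in Jak2V617F and 0.559, 0.789 and 0.542 CPM in WT. Atp6v0c-ps2 (chr6:37806086-37806550, + strand) was read at 85.4, 81.9 and 39.5 CPM, 92.3 and 83 CPM, 33.3, 32.5 and 0.58 CPM, and 0.895, 1.3 and 0.783 CPM in the same order. Jak2V617F 3 thus read like WT at both, while the other Jak2V617F libraries did not. Eif3j2 (chr18:43475418-43477796), for which sharing of reads with other copies was not tested, was read at 29.2, 34.7 and 8.67 CPM with both lesions, 28.7 and 31.8 CPM in Asxl1-/-, 5.64, 4.22 and 4.27 CPM in Jak2V617F and 2.57, 2.31 and 3.56 CPM in WT. For Gm9825, Atp6v0c-ps2 and Eif3j2 the log2 fold changes with both lesions against WT were 6.17 (adjusted p = 0.0231), 6.11 (adjusted p = 0.0209) and 3.11 (adjusted p = 0.00683), and the calls of both pseudogenes were lost without WT 2, WT 3, Asxl1-/-Jak2V617F 1 or Asxl1-/-Jak2V617F 2. What distinguishes these libraries was not tested.

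Of 907 transcription factors tested, by the family column of the deposited table, 32 were higher (3.53%) and 79 lower (8.71%) with both lesions, against 8.3% and 6.76% of all genes. Of 430 C2H2 zinc finger genes 6 were higher (1.4%) and 37 lower (8.6%). Of 46 bHLH genes 0 were higher and 8 lower (17.4%), and of 44 bZIP genes, the family of Fos and Jun, 8 were higher (18.2%) and 5 lower (11.4%). No family was tested against the others. Per chromosome, chromosome 18 had 12.3% of its 358 tested genes higher and 2.23% lower, and chromosome 17 had 6.39% of 829 higher and 10.5% lower.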
